A study of Mus musculus with 6 samples.

Results

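Wild-type lung lavage cells were set against lavage cells of both genotypes that lack CIS, and the genes described are those whose level lay on the same side of both wild-type samples in all 4 CIS-deficient samples. RNA of mouse bronchoalveolar lavage (BALF) cells, the immune cells rinsed from the airspaces, was sequenced in bulk from untreated lungs. All 6 samples of the study entered: 2 of genotype WT, 2 of Cis_KO (CIS deleted, STAT6 present) and 2 of Cis_Stat6_DKO (CIS and STAT6 both deleted). The labels give 1 date for all samples and do not name the strain, the age, the kind of deleted allele or whether a replicate is 1 animal, so each p-value reflects only the scatter among these samples, which may be technical. The labels do not say whether WT animals were littermates of the mutants, so loss of CIS and any other difference between these animals cannot be told apart. Of 40564 genes in the files 16765 had enough reads to be tested, and in 2244 of them the 4 CIS-deficient samples lay all above or all below both WT samples. With 4 samples against 2, many genes separate in this way by chance alone. The 2244 are therefore not a count of genes changed by loss of CIS.

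CIS, encoded by Cish, is an SH2-domain protein of the suppressor of cytokine signalling family. Cytokine receptors that activate STAT5 switch Cish on, and the protein then binds those receptors and dampens them, so that it works as a feedback inhibitor. STAT6 is the transcription factor through which interleukin 4 and interleukin 13 act, and a difference shared by both mutant genotypes is one that is seen whether or not STAT6 is present. Most cells in the airspaces of an untreated lung are alveolar macrophages, whose identity depends on GM-CSF, a cytokine that signals through STAT5.

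The libraries held 50762354 to 65937118 counted reads, and levels are given as CPM, the count of a gene over its library's total after TMM scaling, times a fixed factor. Genes that define alveolar macrophages were present in every sample, with Siglecf at 140 to 232 CPM, Pparg at 158 to 205 CPM and Itgax at 1175 to 1797 CPM. Cis_KO replicate 2 stood apart: haemoglobin transcripts took 3.29% of its counts, where the highest share elsewhere was 0.0366%, and reads fell on 15855 genes there and on 19641 to 20431 in the rest. Markers of erythroid cells and platelets summed to 38782 CPM in that library and to 16.2 to 361 CPM in the other 5, those of neutrophils to 911 CPM against 176 to 337 CPM, and those of B and plasma cells to 154 CPM against 0.636 to 53.4 CPM. The part of these other cells in the results was not tested, and values without this library are given where leaving it out changed the call of a named gene. In bulk RNA, fewer cells of a type and less RNA per cell cannot be told apart.

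The deleted genes followed the labels. Cish stood at 46.2 and 56.2 CPM in WT, at 4.34 and 3.52 CPM in Cis_KO and at 1.72 and 5.04 CPM in Cis_Stat6_DKO. The remaining reads were few but present in all 4 CIS-deficient samples, which did not overlap WT. The difference was a log2 fold change of -3.81 ± 0.40 (SE), 14.0-fold lower, with an adjusted p of 0.0521 in edgeR's quasi-likelihood test with Benjamini-Hochberg adjustment, just short of the 0.05 threshold. Over 18 alternative analyses its adjusted p ran from 2.66e-14 to 0.427, and 8 of them passed. Stat6 was at 233 and 227 CPM in WT and at 264 and 221 CPM in Cis_KO, against 31.6 and 25.5 CPM in Cis_Stat6_DKO. Cis_Stat6_DKO minus Cis_KO was -3.09 ± 0.20 on the log2 scale (edgeR adjusted p = 0.00610), so STAT6 status separates the genotypes that are pooled here while Cish does not.

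Cish lies on chromosome 9 at 107296026-107302784 (GENCODE M21, GRCm38, plus strand). The start of its RefSeq transcript holds a pair of matches to TTCNNNGAA, the letters that STAT5 and related factors are known to bind, and this stretch is shown because it is the best known link between STAT5 and this gene. The motif reads the same on both strands, and its matches are in capitals. RefSeq windows (GRCm38.p6) hold 250 bases before and 50 after each start. Of the 23 genes named below by rule or call, Cish included, 9 had a window. The motif was in 3 of the 9 (33.3%), against 7.00% of windows of genes tested and 8.30% of all 32851 windows. Cish is among the 3 and its matches were known beforehand, so this share of 9 windows is no test of enrichment. The stretches are written 5′ to 3′ on the gene's strand.
Cish, chr9:107296654-107296683, plus strand: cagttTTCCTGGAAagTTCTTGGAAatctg
Gpr55, chr1:85961111-85961139, minus strand: tcagtcaactTTCCAGGAAgggagaggag
Pla2g7, chr17:43568296-43568324, plus strand: tgttcagtgaTTCCGTGAActttgcggat
The first Cish match begins at the annotated RefSeq start, whereas the Gpr55 match begins 74 bases and the Pla2g7 match 145 bases before theirs. The Cish and Pla2g7 matches lie inside the gene records used for counting, which start at 107296026 and 43568098. The bases after the RefSeq start of Gpr55 were found in no GENCODE transcript of that gene. TTC and GAA separated by 4 bases, the spacing STAT6 is known to prefer, occurred in 1 of the 9 windows (11.1%), that of Spint1. The share was 5.64% in windows of genes tested and 6.95% in all windows. These matches are letters in a window and do not show binding.

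Loss of CIS, pooled over both mutant genotypes, went with few differences that passed the test. In the edgeR fit of 4 CIS-deficient against 2 WT samples 6 of 16765 genes (0.0358%) were called at an adjusted p under 0.05: Ccbe1, Flt1, Gm50143 and Gm46620 rose, and Rpl29 and Gm49909 fell. With or without a call, 990 genes (5.91% of those tested) had all 4 CIS-deficient samples above both WT samples, and 1254 (7.48%) had them below. Of these, 325 and 484 differed by a log2 fold change of at least 1 in size. How far these counts exceed those expected by chance was not tested. An unadjusted p under 0.05 in the edgeR fit was reached by 488 genes (2.91% of those tested). The number called turned on single libraries: it was 1 without WT replicate 1, 0 without WT replicate 2, 0 without Cis_KO replicate 1, 21 without Cis_KO replicate 2, 0 without Cis_Stat6_DKO replicate 1 and 2 without Cis_Stat6_DKO replicate 2. DESeq2 called 116 genes, the 6 among them.

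**Figure D1:**
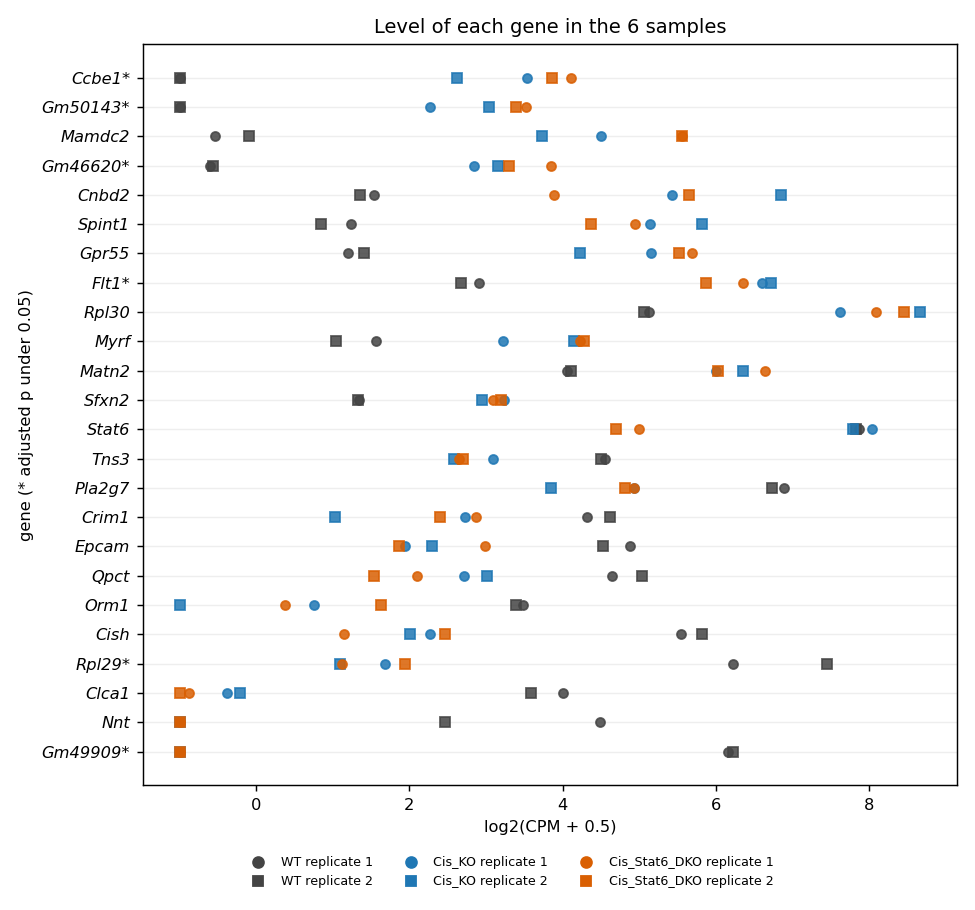
Level of the called genes (asterisk), the targeted genes and the genes with the widest gap between groups, as log2(CPM + 0.5) in each of the 6 samples; each symbol is 1 sample, with WT in grey, Cis_KO in blue and Cis_Stat6_DKO in orange. In every gene but Stat6 the 4 coloured symbols lie on 1 side of both grey ones, and in Stat6 only the Cis_Stat6_DKO samples, at 31.6 and 25.5 CPM, are apart.

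Of the called genes that rose, the protein-coding ones were Flt1 and Ccbe1, each with a known part in vascular growth factor biology. Flt1, VEGF receptor 1, was at 7.04 and 5.89 CPM in WT, at 97.0 and 105 CPM in Cis_KO and at 81.7 and 58.1 CPM in Cis_Stat6_DKO. All 4 CIS-deficient samples were far above WT, a log2 fold change of 3.72 ± 0.33 or 13.2-fold (edgeR adjusted p = 0.0303). The call held in 13 of 18 alternatives, with adjusted p between 2.78e-28 and 0.427. Ccbe1, a secreted protein needed for VEGF-C maturation and lymphatic growth, had 0 reads in both WT libraries. It reached 11.1 and 5.66 CPM in Cis_KO and 16.8 and 14.0 CPM in Cis_Stat6_DKO. Against 3 counts over the WT group its mean was at least 501-fold higher (edgeR adjusted p = 0.0449, passed in 8 of 18 alternatives, range 5.57e-12 to 0.742).

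The non-coding Gm50143 lies within an intron of Ccbe1 on the same strand (chromosome 18, 66127305-66218288, inside Ccbe1 at 66045302-66291827). It too had 0 WT reads and was at 4.30 and 7.69 CPM in Cis_KO and at 11.0 and 9.97 CPM in Cis_Stat6_DKO, at least 348-fold higher (edgeR adjusted p = 0.0449), and its reads cannot be told apart from those of unspliced Ccbe1 RNA. Gm46620, a long non-coding RNA on the same chromosome (82694287-82701336), was at 0.155 and 0.175 CPM in WT, at 6.66 and 8.43 CPM in Cis_KO and at 13.9 and 9.38 CPM in Cis_Stat6_DKO (58.1-fold, log2 5.84 ± 0.52, edgeR adjusted p = 0.0303). So 3 of the 4 called genes that rose lie on chromosome 18, which holds 404 of the 16765 genes tested. Ccbe1 and Gm50143 among them cannot be counted as separate, since their reads cannot be told apart.

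The list of VEGF and lymphatic growth factors and receptors was chosen with earlier results of these data known. Flt1 and Ccbe1, called among its 11 tested genes, are therefore no separate evidence about the list. Over all genes tested 0.0358% were called. Its 3 members without overlap, Flt1, Ccbe1 and Nrp2, stand beside 13.4% of all genes. Nrp2, a co-receptor for VEGF-C and semaphorins, was lower in all 4 CIS-deficient samples without passing. Nrp2 stood at 163 and 162 CPM in WT, 62.7 and 44.5 CPM in Cis_KO and 122 and 143 CPM in Cis_Stat6_DKO (log2 -0.80 ± 0.44, edgeR adjusted p = 1.00). The ligands and other receptors of the list overlapped between groups, among them Pgf, a ligand of Flt1, at 3.14 and 3.55 CPM in WT and 2.98 to 6.31 CPM in CIS-deficient samples. The median log2 fold change of the list was 0.32, beside 0.01 over all genes tested, and ran from -0.17 to 0.40 over the alternatives. By sample, the list's median relative to WT was -0.16 and -0.12 in Cis_KO and 0.31 and -0.08 in Cis_Stat6_DKO. The list was thus not higher as a whole in both genotypes.

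The called genes that fell were a ribosomal protein gene near Cish and a predicted gene that overlaps others. Rpl29, a protein of the large ribosomal subunit, was at 74.3 and 175 CPM in WT, at 2.72 and 1.64 CPM in Cis_KO and at 1.68 and 3.33 CPM in Cis_Stat6_DKO. Its CIS-deficient samples were 53.3-fold below WT (log2 -5.73 ± 0.45, edgeR adjusted p = 0.0234, passed in 13 of 18 alternatives, range 6.01e-32 to 0.179). The sum of Rpl29 and its annotated pseudogenes was at 74.5 and 175 CPM in WT against 1.90 to 3.62 CPM in CIS-deficient samples. Gm49909 was at 71.0 and 74.4 CPM in WT and had no read in any CIS-deficient library, at least 5466-fold lower (edgeR adjusted p = 0.0234). This record overlaps Myl12a and Myl12b, myosin light chain genes on the same strand of chromosome 17, and the sum of the 3 was 578 and 591 CPM in WT and 487 to 943 CPM in CIS-deficient samples, so the sums of the groups overlapped.

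Below the threshold, the widest gaps upward were those of 8 other genes. Mamdc2, which encodes an extracellular matrix protein, was at 0.190 and 0.438 CPM in WT, 22.1 and 12.8 CPM in Cis_KO and 46.7 and 46.5 CPM in Cis_Stat6_DKO (log2 6.65 ± 0.82, edgeR adjusted p = 0.0769). Spint1, an inhibitor of membrane-bound serine proteases, was at 1.86 and 1.30 CPM in WT, 34.8 and 56.2 CPM in Cis_KO and 30.4 and 20.2 CPM in Cis_Stat6_DKO (log2 4.48 ± 0.52, adjusted p = 0.0631). Gpr55, a receptor for lysophosphatidylinositol, was at 1.79 and 2.15 CPM in WT, 35.0 and 18.3 CPM in Cis_KO and 51.3 and 45.4 CPM in Cis_Stat6_DKO (log2 4.25 ± 0.50, adjusted p = 0.0631). In these 3 genes the lowest CIS-deficient sample was many times the highest WT sample, and each passed when Cis_KO replicate 2 was left out (edgeR adjusted p = 0.0179, 0.0179 and 0.00598). Over all alternatives the lowest values were 1.72e-23, 3.12e-19 and 5.65e-19, and the highest was 1.00 for each.

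Rpl30, another large-subunit ribosomal protein gene, was at 34.6 and 32.9 CPM in WT, at 196 and 408 CPM in Cis_KO and at 273 and 353 CPM in Cis_Stat6_DKO (9.11-fold, log2 3.19 ± 0.35, edgeR adjusted p = 0.0560). Together with its annotated pseudogenes it was at 84.4 and 90.4 CPM in WT and at 237 to 506 CPM in CIS-deficient samples, a smaller log2 difference of 2.06. Rpl30 passed without Cis_KO replicate 2 (edgeR adjusted p = 0.0237, 2.04e-17 to 1.00 over all alternatives). Matn2, an adaptor protein of the extracellular matrix, lies 4 kb from Rpl30 on chromosome 15 and was at 16.1 and 16.8 CPM in WT against 63.7 to 99.1 CPM in the 4 CIS-deficient samples (log2 2.23 ± 0.26, adjusted p = 0.0631, 0.0479 without Cis_KO replicate 2, and 4.22e-13 to 1.00 over all alternatives). Cnbd2, a cyclic nucleotide binding protein gene, was at 2.40 and 2.05 CPM in WT and 14.3 to 115 CPM in CIS-deficient samples. Myrf, a membrane-bound transcription factor, was at 2.45 and 1.56 CPM in WT and 8.80 to 19.0 CPM in CIS-deficient samples. Sfxn2, a mitochondrial carrier gene, was at 2.04 and 2.02 CPM in WT and 7.22 to 8.88 CPM in CIS-deficient samples. None of Cnbd2, Myrf and Sfxn2 passed (edgeR adjusted p = 0.350, 0.158 and 0.158).

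None of the other genes with the widest gaps downward passed the threshold. Pla2g7, the plasma enzyme that degrades platelet-activating factor, was at 118 and 106 CPM in WT, 30.1 and 13.9 CPM in Cis_KO and 30.1 and 27.7 CPM in Cis_Stat6_DKO (log2 -2.13 ± 0.31, edgeR adjusted p = 0.155, 0.00824 without Cis_KO replicate 2, and 1.44e-06 to 1.00 over all alternatives). Clca1, a secreted product of mucous cells, was at 15.6 and 11.5 CPM in WT and at 0.00 to 0.365 CPM in CIS-deficient samples (log2 -6.33 ± 1.09, adjusted p = 0.270). Qpct, a glutaminyl cyclase, was at 24.5 and 32.3 CPM in WT and 2.39 to 7.54 CPM in CIS-deficient samples (adjusted p = 0.274). All 4 CIS-deficient samples of these genes lay below both WT samples by a wide margin.

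Epcam, an epithelial adhesion molecule, was at 28.9 and 22.6 CPM in WT, 3.36 and 4.41 CPM in Cis_KO and 7.46 and 3.15 CPM in Cis_Stat6_DKO (log2 -2.49 ± 0.38, edgeR adjusted p = 0.158). Of 17 epithelial markers tested none was called. Epcam and Abca3 were lower and Cdh1 was higher in all 4 CIS-deficient samples, beside 7.48% and 5.91% of all genes. The summed markers were at 277 and 304 CPM in WT, 193 and 445 CPM in Cis_KO and 236 and 147 CPM in Cis_Stat6_DKO, so 3 CIS-deficient samples lay below both WT samples and Cis_KO replicate 2 lay above them. The list's median log2 fold change was -0.02, and -0.86 without Cis_KO replicate 2. The alveolar type II marker Sftpc was at 4.95 and 6.37 CPM in WT against 0.823 to 14.2 CPM. The part of epithelial cells in the Epcam difference was not tested. Orm1, an acute-phase protein gene, was at 10.7 and 9.98 CPM in WT and 0.00 to 2.59 CPM in CIS-deficient samples. Crim1, a membrane protein that binds bone morphogenetic proteins, was at 19.5 and 24.0 CPM in WT and 1.53 to 6.83 CPM in CIS-deficient samples. Tns3, a focal adhesion protein gene, was at 22.9 and 22.2 CPM in WT and at 6.33 ± 1.14 CPM (SD, n = 4) in CIS-deficient samples, all lower. The edgeR adjusted p-values of Orm1, Crim1 and Tns3 were 1.00, 0.809 and 0.115.

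Nnt, the mitochondrial transhydrogenase, has 2 overlapping gene records of that name, and values are given for both. The record ENSMUSG00000116207 was at 21.9 and 5.01 CPM in WT and had no read in CIS-deficient samples. The record ENSMUSG00000025453 was at 8.09 and 24.2 CPM in WT and at 48.0 to 56.8 CPM in CIS-deficient samples. Both together came to 30.0 and 29.2 CPM in WT and 48.0 to 56.8 CPM in CIS-deficient samples, so the sum was higher in all CIS-deficient samples, the other way from the first record. How reads were divided between the records was not tested. Steap3 and Klhdc4, chosen after their values were seen, had tight groups at higher levels. Steap3, an endosomal iron reductase, was at 51.8 and 54.1 CPM in WT and 17.4 to 21.1 CPM in CIS-deficient samples (log2 -1.45 ± 0.18, edgeR adjusted p = 0.0769, 0.0237 without Cis_KO replicate 2, and 4.18e-09 to 1.00 over all alternatives). Klhdc4, a kelch-repeat protein gene, was at 200 and 207 CPM in WT and 544 to 746 CPM in CIS-deficient samples (log2 1.57 ± 0.22, adjusted p = 0.146, 0.0237 without Cis_KO replicate 2, and 6.01e-09 to 1.00 over all alternatives).

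The pooled genotypes differ in STAT6, and the difference between them is given for the main genes. Over all genes 60 of 16765 (0.358%) were called in Cis_Stat6_DKO against Cis_KO. Genes without overlap were chosen with both mutant genotypes on 1 side of WT, which limits how far they can differ from each other, so only single values are given for them. For Flt1 the difference was -0.53 ± 0.23 on the log2 scale (edgeR adjusted p = 0.281), for Ccbe1 0.88 ± 0.42 (0.329), and for Rpl29 0.18 ± 0.52 (0.885). For Cish it was -0.23 ± 0.48, also short of the threshold. Each was small beside its own pooled difference. Mamdc2 differed by 1.42 ± 0.38 (edgeR adjusted p = 0.180). Clca1 differed by -3.57 ± 0.84 (0.146), a value that rests on 36 reads over the 4 CIS-deficient libraries. It was at 0.266 and 0.365 CPM in Cis_KO and at 0.0433 and 0.00 CPM in Cis_Stat6_DKO, where 3 counts are 0.0433 and 0.0617 CPM. With 2 samples a genotype, a p above the threshold does not show that the genotypes were alike.

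**Figure D2:**
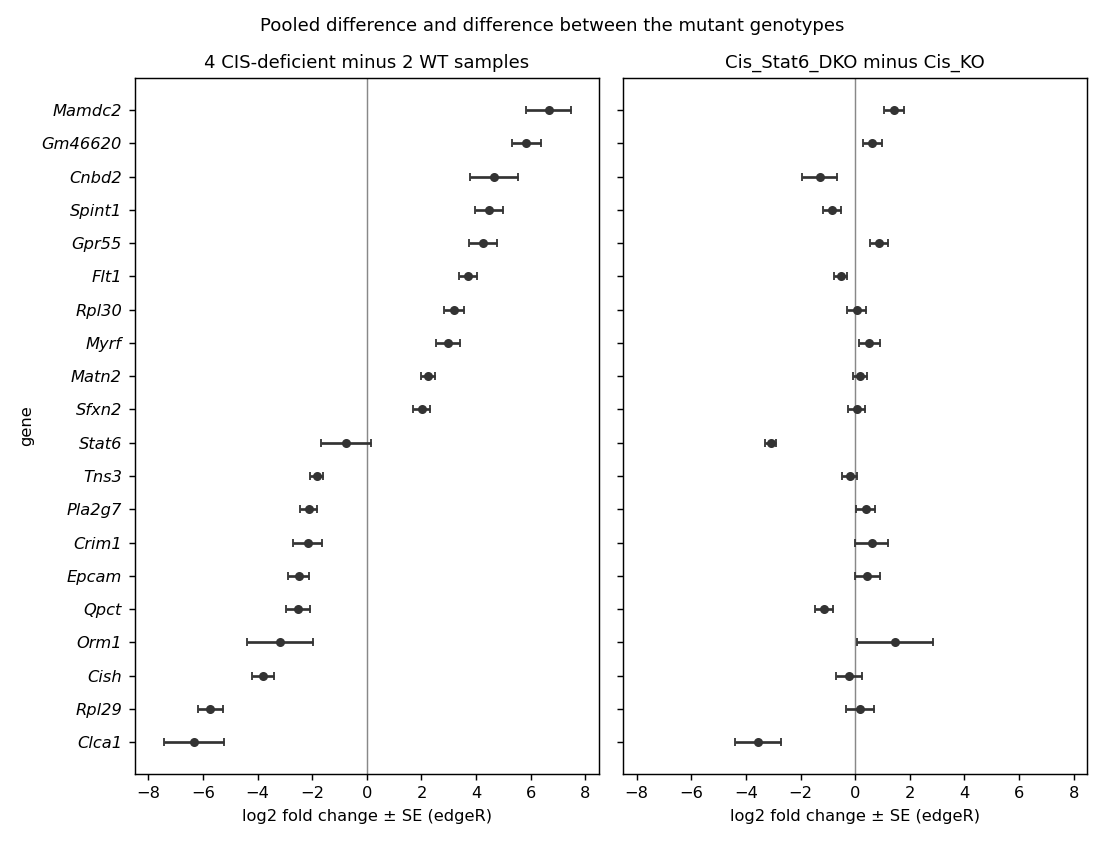
Log2 fold change with its SE (bars) from edgeR for the same genes, except the 4 with no read in 1 group, in the 4 CIS-deficient minus the 2 WT samples (left) and in Cis_Stat6_DKO minus Cis_KO (right). The pooled differences of all genes but Stat6 exceed their SE on the left, from -6.33 (Clca1) to 6.65 (Mamdc2), while on the right Stat6 stands at -3.09 and Clca1 at -3.57, and the others lie between -1.30 (Cnbd2) and 1.47 (Orm1).

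Each mutant genotype against the same 2 WT samples gave 20 genes higher and 26 lower for Cis_KO (0.274% of genes tested), and 11 higher and 11 lower for Cis_Stat6_DKO (0.131%), in a fit with 3 genotypes. These comparisons share the WT libraries, so a gene called in both, of which there were 9, is not supported independently. Flt1 changed by 3.96 ± 0.26 in Cis_KO (edgeR adjusted p = 0.00819) and by 3.43 ± 0.25 in Cis_Stat6_DKO (adjusted p = 0.00988). For Alas1, the first enzyme of haem synthesis, the values were -1.89 ± 0.19 (adjusted p = 0.0298) and -0.99 ± 0.19 (adjusted p = 0.213). Mamdc2 rose by 5.77 ± 0.48 (0.0158) and by 7.18 ± 0.51 (0.00988) in this fit.

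The suppressors of cytokine signalling, the family of the deleted gene, had a median log2 fold change of -0.11, beside 0.01 over all genes tested. Of 8 tested members none was called. Without overlap were 3, beside 13.4% of all genes: Cish itself, Socs1 and Socs4. Socs4 was at 28.6 and 31.1 CPM in WT and at 25.0 to 28.6 CPM in CIS-deficient samples. Socs1, which inhibits JAK kinases directly, was at 0.845 and 0.585 CPM in WT and at 1.29 to 2.21 CPM in CIS-deficient samples (log2 1.28 ± 0.57, edgeR adjusted p = 1.00). Socs3 overlapped, at 19.8 and 19.3 CPM in WT and at 12.7 to 34.0 CPM in CIS-deficient samples. Socs2, which STAT5 also induces, was at 9.35 and 15.7 CPM in WT and 5.41 to 13.2 CPM in CIS-deficient samples.

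Receptors that signal through STAT5 gave no call among 16 tested, and 1 was higher and 3 lower without overlap, beside 5.91% and 7.48% of all genes. Csf3r, the G-CSF receptor, had the tightest groups, at 116 and 113 CPM in WT, 61.8 and 61.1 CPM in Cis_KO and 64.2 and 53.9 CPM in Cis_Stat6_DKO. The CIS-deficient samples were 1.90-fold below WT (log2 -0.93 ± 0.16, edgeR adjusted p = 0.300). Csf3r is also a neutrophil marker, and the median of that list relative to WT was -0.16 and 3.46 in Cis_KO and 0.73 and 1.13 in Cis_Stat6_DKO. Il7r, the interleukin 7 receptor, was at 32.9 and 22.6 CPM in WT, 3.74 and 3.20 CPM in Cis_KO and 11.2 and 18.5 CPM in Cis_Stat6_DKO (log2 -1.60 ± 0.68, adjusted p = 1.00). The GM-CSF receptor chains Csf2ra and Csf2rb overlapped between groups, at 343 and 351 CPM against 295 to 453 CPM, and at 502 and 567 CPM against 404 to 563 CPM. Csf2rb2, of the same list, was slightly lower in all CIS-deficient samples, at 195 and 206 CPM against 145 to 190 CPM (log2 -0.23 ± 0.18). Ghr, the growth hormone receptor, was at 1.41 and 1.90 CPM in WT and 2.31 to 15.7 CPM in CIS-deficient samples, the highest in a single Cis_Stat6_DKO library.

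Of 11 JAK and STAT genes 1 kept the groups apart, beside 13.4% of all genes. It was Jak1, at 227 and 215 CPM in WT and 124 to 209 CPM in CIS-deficient samples (log2 -0.30 ± 0.24, edgeR adjusted p = 1.00). Stat5a, at 34.1 and 37.1 CPM in WT and 20.9 to 37.5 CPM in CIS-deficient samples, and Stat5b, at 61.7 and 65.4 CPM against 42.4 to 63.5 CPM, overlapped. Of 28 genes that STAT5 is known to induce none was called, and 3 had all CIS-deficient samples higher and 3 lower, Cish among them, beside 5.91% and 7.48% of all genes. Their median log2 fold change was 0.03. Ccl22, a chemokine for regulatory T cells, was at 9.35 and 6.53 CPM in WT and 11.0 to 22.3 CPM in CIS-deficient samples. Pim3, a survival kinase, was at 23.0 and 26.8 CPM in WT and 14.7 to 22.3 CPM in CIS-deficient samples.

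The alveolar macrophage programme driven by GM-CSF and PPAR-gamma had no call among 32 genes, and 4 members lay higher and 1 lower without overlap, beside 5.91% and 7.48% of all genes. Car4, a membrane-bound carbonic anhydrase, was at 368 and 442 CPM in WT, 637 and 1227 CPM in Cis_KO and 873 and 870 CPM in Cis_Stat6_DKO (2.23-fold, log2 1.15 ± 0.29, edgeR adjusted p = 1.00). Abca1, the cholesterol exporter, was at 95.5 and 115 CPM in WT and 22.2 to 65.1 CPM in CIS-deficient samples (log2 -1.20 ± 0.38, adjusted p = 1.00). Plet1, at 541 and 634 CPM against 696 to 753 CPM, and Serpinb1a, at 151 and 184 CPM against 197 to 221 CPM, were higher by 1.22-fold and 1.26-fold. The median of the list was 0.12.

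Genes that IL-4 and STAT6 are known to induce gave 1 call among 26, Flt1, where 0.0358% of all genes were called. The list was chosen with earlier results of these data known, so this call is no separate evidence about it. Flt1 was also higher in Cis_Stat6_DKO, where STAT6 is deleted. Without overlap 5 members were higher and 2 lower, beside 5.91% and 7.48% of all genes. Cdh1, E-cadherin, was at 31.2 and 37.0 CPM in WT, 55.0 and 68.6 CPM in Cis_KO and 75.4 and 59.6 CPM in Cis_Stat6_DKO (log2 0.92 ± 0.21, edgeR adjusted p = 0.722). Retnla was lower and close to the detection limit, at 1.54 and 0.687 CPM in WT and 0.00 to 0.173 CPM in CIS-deficient samples.

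Chemokines and classical activation genes gave no call. Of 19 chemokines tested 4 lay higher in all CIS-deficient samples, beside 5.91% of all genes. Ccl6, an abundant macrophage chemokine, was at 1888 and 2839 CPM in WT, 3764 and 4075 CPM in Cis_KO and 5202 and 6578 CPM in Cis_Stat6_DKO (log2 1.05 ± 0.32, edgeR adjusted p = 1.00). Its neighbour Ccl9 was at 30.5 and 55.2 CPM in WT and 72.6 to 106 CPM in CIS-deficient samples. Of 20 classical activation genes none kept the groups apart, beside 13.4% of all genes. Their median was -0.82 in Cis_KO and 1.15 in Cis_Stat6_DKO, both against WT.

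**Figure D3:**
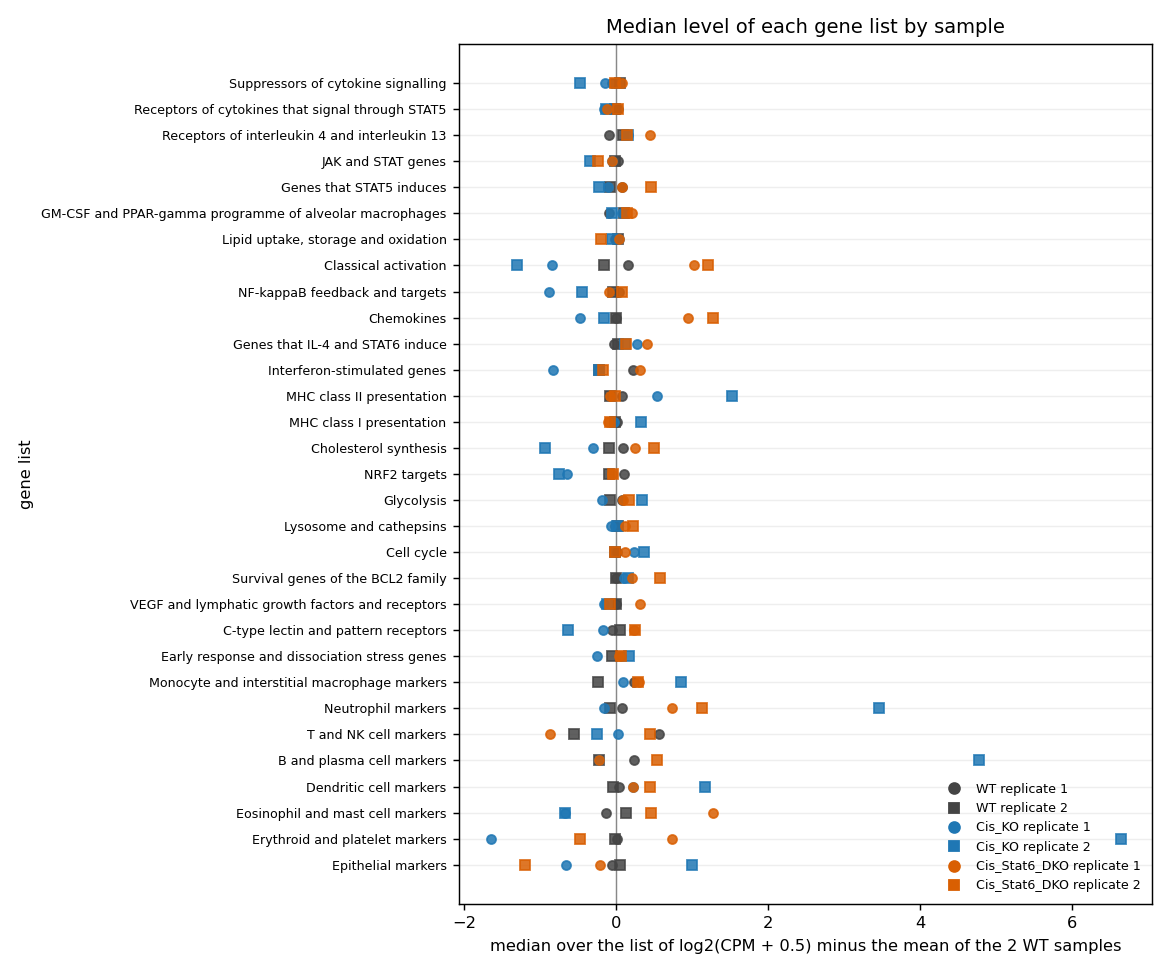
Median over each gene list of log2(CPM + 0.5) minus the mean of the 2 WT samples, 1 symbol per sample (WT grey, Cis_KO blue, Cis_Stat6_DKO orange). Classical activation lies at -0.85 and -1.31 in Cis_KO and at 1.03 and 1.21 in Cis_Stat6_DKO, and the neutrophil, B cell and erythroid lists reach 3.46, 4.77 and 6.64 in Cis_KO replicate 2.

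NRF2 targets had no call among 27 and 4 members lower without overlap, beside 7.48% of all genes. Hmox1, haem oxygenase, was at 2373 and 1837 CPM in WT, 465 and 436 CPM in Cis_KO and 1262 and 1469 CPM in Cis_Stat6_DKO (log2 -1.21 ± 0.52, edgeR adjusted p = 1.00). Abcc1, a glutathione conjugate pump, was at 162 and 139 CPM in WT, 76.4 and 56.4 CPM in Cis_KO and 116 and 108 CPM in Cis_Stat6_DKO. Gclm, a subunit of the enzyme of glutathione synthesis, was at 169 and 148 CPM in WT, 71.7 and 49.9 CPM in Cis_KO and 123 and 136 CPM in Cis_Stat6_DKO. In all 3 genes the Cis_Stat6_DKO samples lay between the others.

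Antigen presentation gave single genes and no call. H2-T23, a non-classical class I gene, was at 91.5 and 82.4 CPM in WT, 155 and 258 CPM in Cis_KO and 212 and 243 CPM in Cis_Stat6_DKO (log2 1.32 ± 0.25, edgeR adjusted p = 0.350). H2-M3, which presents formylated peptides, was at 13.5 and 12.4 CPM in WT and 20.1 to 29.0 CPM in CIS-deficient samples. H2-T10, annotated as a polymorphic pseudogene and chosen after its values were seen, was at 37.1 and 39.4 CPM in WT and 3.90 to 11.1 CPM in CIS-deficient samples (log2 -2.64 ± 0.42, adjusted p = 0.175). It passed in 5 of 18 alternatives, with an edgeR adjusted p of 0.00598 without Cis_KO replicate 2, where it was highest of the CIS-deficient samples, and 2.48e-05 to 1.00 over all of them. Ciita, the master regulator of class II genes, was at 0.811 and 0.935 CPM in WT, 4.08 and 5.30 CPM in Cis_KO and 1.49 and 1.56 CPM in Cis_Stat6_DKO. None of the other 12 class II list members kept the groups apart, beside 13.4% of all genes.

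Of 26 C-type lectin and pattern receptors none was called, and 3 were higher and 3 lower without overlap, beside 5.91% and 7.48% of all genes. Clec1b, a platelet and myeloid receptor, was at 1.48 and 1.32 CPM in WT, 12.8 and 28.2 CPM in Cis_KO and 4.90 and 4.32 CPM in Cis_Stat6_DKO (log2 3.16 ± 0.89, edgeR adjusted p = 1.00). Clec9a, a dendritic cell receptor whose record overlaps the end of Clec1b, was at 0.0518 and 0.161 CPM in WT and 0.477 to 2.58 CPM in CIS-deficient samples. Clec12a, an inhibitory receptor in the same cluster, was at 49.6 and 70.2 CPM in WT and 33.3 to 48.1 CPM in CIS-deficient samples. Summed markers of dendritic cells were at 349 and 389 CPM in WT and 287 to 521 CPM in CIS-deficient samples.

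Proliferation, survival, degradation and lipid genes gave no call. Of 33 cell cycle genes 4 were higher without overlap, beside 5.91% of all genes. Among them were Pcna, the replication clamp, at 156 and 168 CPM in WT and 217 to 252 CPM in CIS-deficient samples (log2 0.53 ± 0.17, edgeR adjusted p = 1.00), Cdk1, at 24.6 and 27.9 CPM against 33.2 to 44.8 CPM, and Bub1b, at 58.7 and 52.9 CPM against 65.1 to 87.3 CPM. The list's median was 0.13. Of the BCL2 family, Bid, a death-promoting member, was at 4.31 and 3.99 CPM in WT and 5.01 to 11.0 CPM in CIS-deficient samples, and Bcl2a1d, a survival member with close paralogs, was at 116 and 155 CPM against 158 to 281 CPM.

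Of 30 lysosomal genes 5 were higher and 2 lower without overlap, none called, beside 5.91% and 7.48% of all genes. Ctsd, cathepsin D, was at 8670 and 9378 CPM in WT and 10708 to 14698 CPM in CIS-deficient samples, and Lgmn, legumain, at 169 and 173 CPM against 189 to 298 CPM. Ctsk, cathepsin K, shows the opposite case, at 770 and 665 CPM in WT, 482 and 478 CPM in Cis_KO and 1871 and 2809 CPM in Cis_Stat6_DKO. Of 27 lipid genes 1 was higher and 2 lower without overlap, beside 5.91% and 7.48% of all genes, with a median of -0.09. The higher one, Acadl, an enzyme of fatty acid oxidation, was at 67.5 and 72.4 CPM in WT and 93.2 to 106 CPM in CIS-deficient samples. The lower ones were Abca1, given above, and Acadm, at 110 and 97.8 CPM against 77.1 to 96.0 CPM.

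Markers of other cell types gave no call. Of 14 neutrophil markers Retnlg was higher and Csf3r lower without overlap, beside 5.91% and 7.48% of all genes. Retnlg was at 0.0863 and 0.132 CPM in WT and at 0.188, 20.4, 1.42 and 12.0 CPM in the CIS-deficient samples, and S100a9 was at 1.35 and 1.24 CPM in WT and at 0.438, 133, 27.7 and 72.3 CPM. The list's median log2 fold change was 2.76, and 0.90 without Cis_KO replicate 2. For B and plasma cell markers it was 5.35 with that library and 0.62 without it, and for erythroid and platelet markers 5.21 and -0.43.

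Genes close to Cish on chromosome 9 were examined because a targeted locus carries its flanking chromosome with it. Within 2 Mb of Cish 19 of 110 tested genes (17.3%) had no overlap, 5 higher and 14 lower, against 13.4% of all genes and 12.1% within 5 Mb. Rpl29, 0.86 Mb away, is one of them. The nearest upward difference was 6430571L13Rik, 0.04 Mb away, at 0.242 and 0.0585 CPM in WT, 6.99 and 9.27 CPM in Cis_KO and 4.42 and 4.73 CPM in Cis_Stat6_DKO (42.3-fold, log2 5.40 ± 0.78, edgeR adjusted p = 0.155).

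Alas1, 1.05 Mb from Cish, was at 333 and 381 CPM in WT, 95.2 and 97.5 CPM in Cis_KO and 159 and 201 CPM in Cis_Stat6_DKO (log2 -1.37 ± 0.33, edgeR adjusted p = 0.809). Dock3, 0.06 Mb away, was at 1.78 and 1.37 CPM in WT and 0.00 to 0.226 CPM in CIS-deficient samples, and Mst1r, a receptor tyrosine kinase gene, was at 0.207 and 1.23 CPM against no read in any CIS-deficient library, at least 53.9-fold lower. Parp3, at 30.2 and 36.5 CPM against 11.7 to 23.8 CPM, Hemk1, at 6.83 and 4.12 CPM against 0.799 to 3.31 CPM, and Tlr9, at 1.02 and 1.56 CPM against 0.0823 to 0.318 CPM, were lower. Acy1, at 26.0 and 27.2 CPM against 29.4 to 73.0 CPM, and Nprl2, at 10.3 and 9.16 CPM against 11.7 to 23.0 CPM, were higher. None of these passed the test in the pooled fit.

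**Figure D4:**
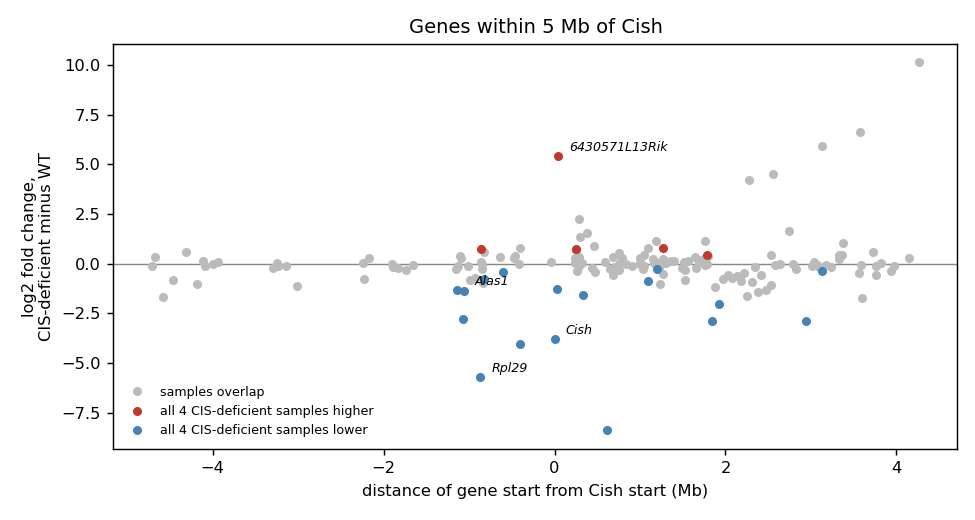
Log2 fold change, CIS-deficient minus WT, of each tested gene within 5 Mb of the Cish start, against the distance between gene starts in Mb; red and blue points are genes without overlap (higher and lower), grey points overlap. Rpl29 at -5.73, Mst1r at -8.40 (no read in any CIS-deficient library) and 6430571L13Rik at 5.40 lie far from 0, among many genes near 0.

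Chromosome 17 held the highest share of genes without overlap, 167 of 863 tested (19.4%), followed by chromosomes 19 (15.5%) and 18 (15.3%), and chromosome 7 held the lowest (11.0%). Genes with an unadjusted p under 0.01 made up 2.43% of those tested on chromosome 17 and 2.48% on chromosome 18, against 0.763% of all genes. On chromosome 17 they included Gm49909, Crim1, Qpct, Epcam and Pla2g7, described above. In intervals of 10 Mb, 7 of 58 genes tested between 70 and 80 Mb and 4 of 52 in the first 10 Mb had such a p, but only 2 of 97 in that of Pla2g7. Shares without overlap in these intervals were 25.9%, 26.9% and 14.4%. The highest share of any interval was 35.3%, in the first 10 Mb of chromosome 6. Genes named next were chosen after their values were seen.

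Between 70 and 80 Mb on chromosome 17, Emilin2, a matrix glycoprotein gene, was at 173 and 183 CPM in WT and 69.7 to 92.1 CPM in CIS-deficient samples (log2 -1.11 ± 0.18, edgeR adjusted p = 0.175). Prkd3, protein kinase D3, was at 62.3 and 70.5 CPM in WT and 25.5 to 37.0 CPM in CIS-deficient samples in the same interval. In the first 10 Mb, Mpc1, the mitochondrial pyruvate carrier, was at 44.5 and 42.2 CPM in WT and 91.0 to 183 CPM in CIS-deficient samples, and the sum with its pseudogene Mpc1-ps was 60.9 and 59.8 CPM against 138 to 255 CPM. The radial spoke genes Rsph3a, at 13.9 and 15.3 CPM against 25.5 to 37.1 CPM, and Rsph3b, at 11.6 and 11.9 CPM against 23.0 to 31.6 CPM, lie beside it. Cish is on another chromosome, and whether the strain of the animals had a part in these differences was not tested.

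**Figure D5:**
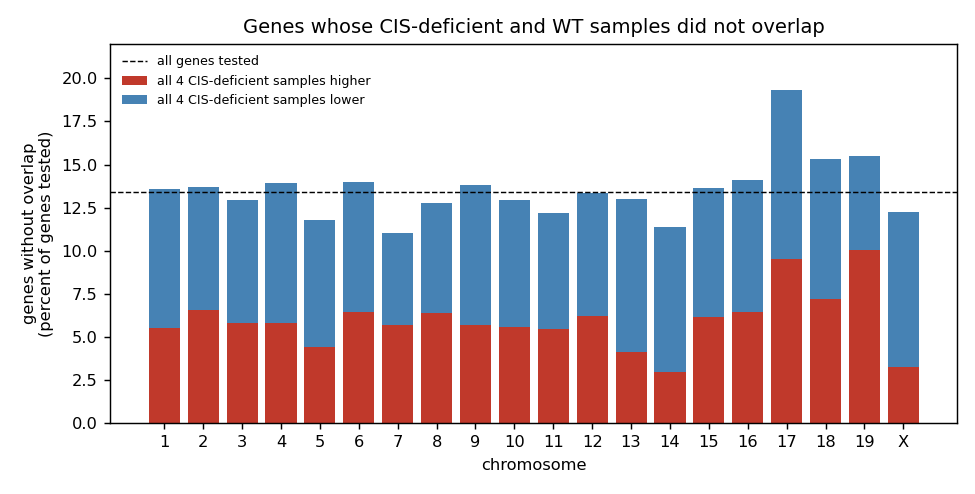
Share of tested genes on each chromosome whose 4 CIS-deficient samples were all above (red) or all below (blue) both WT samples, with the share over all genes tested as a dashed line. Chromosome 17 reaches 19.4% and chromosome 7 is lowest at 11.0%.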

How the data were processed

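Bulk RNA of BALF cells was sequenced in 6 samples. The authors deposited raw read counts per gene, which are not normalised, and FPKM values, which per the file headers are counts per gene length and library size. The submitters' processing notes name build mm10, while aligner, counting tool and strandedness are not stated in the labels or headers; reads of overlapping or near-identical genes are uncertain. Of 40564 gene records 40415 were found in GENCODE M21.

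The test was that of edgeR 4.0.16 (R 4.3.3; TMM, filterByExpr, glmQLFit and glmQLFTest, two-sided) with CIS-deficient (4 samples) against WT (2 samples) as the factor. This left 4 residual degrees of freedom and a common biological coefficient of variation of 58.9%, well above counting error for all but weak genes. The SE is the size of the log2 fold change over the square root of F. P-values were adjusted over all 16765 genes, with a threshold of 0.05. A genotype factor with 3 levels gave each mutant against WT and Cis_Stat6_DKO minus Cis_KO. A group without reads was set to 3 counts over the group for a lower bound, which covers counting error only. The script was tested on simulated data.

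The rule named Cish and Stat6, called genes, up to 10 genes a direction with the widest gap in log2(CPM + 0.5), at least 5 CPM in the higher group and a plain symbol, up to 4 members of each of 31 lists, and genes without overlap within 2 Mb of Cish. Members and lists were chosen with earlier results of these data known. Alternatives were DESeq2 1.42.0, limma 3.58.1 (voom, with and without quality weights, and limma-trend on FPKM in log2 after adding 1 or 0.1), other scalings, filters and factors, a replicate block and each sample left out.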

Additional observations from a re-analysis of the deposited data

Results flagged for a closer look

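In each of 90 genes, named by the rule or chosen for the text, the 4 CIS-deficient samples were searched for 1 far from the other 3. Some genes with values above, such as Pgf and Sftpc, were not among them. Dixon's criterion was used, which chance meets in about 1 group in 20. It was met in 7 genes. Cis_KO replicate 2 was the far sample for Pla2g7 (13.9 CPM), Cdk1 (44.8 CPM), H2-T10 (11.1 CPM) and Klhdc4 (746 CPM). Cis_KO replicate 1 was far below the others for Myrf (8.80 CPM) and Socs3 (12.7 CPM), and Cis_Stat6_DKO replicate 2 was far above them for Ghr (15.7 CPM). Cis_KO replicate 2 also stood apart in its haemoglobin share (3.29% of counts) and in its number of genes with a count (15855).

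Among these 90 genes the mutant genotypes differed by the test of that difference for Stat6 and Ctsk. The differences, Cis_Stat6_DKO minus Cis_KO, were -3.09 and 2.28 ± 0.25 on the log2 scale (edgeR adjusted p = 0.00610 and 0.0313).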

How the results depend on the processing

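The count of 6 genes called became 116 with DESeq2, 95 with limma-voom and sample quality weights, 28 as the mean contrast of a 3-level factor, 17 with no filter, 11 on library size without scaling, 4 with a filter of at least 1 CPM in 2 samples, 14 and 11 with limma-trend on log2(FPKM + 1) and log2(FPKM + 0.1), and 9 when a call in both mutants was required. Limma-voom gave 5. With the replicate block it was 0, with 382 genes at an unadjusted p under 0.05. Leaving out 1 sample gave 0 to 21, and where it gave 0 between 181 and 546 genes had an unadjusted p under 0.05. The causes were not tested, other than that fewer samples were fitted. The 2244 genes without overlap became 2113 without scaling (728 higher, 1385 lower), 2800 with no filter and 1446 on either FPKM scale, and 3265 to 5018 with 1 sample left out, where fewer samples have to agree. Same-numbered deviations correlated across genes at -0.07, -0.12 and 0.05. With 2 samples per genotype each value rests on 1 deviation per group, so whether replicate numbers pair the samples was not settled. No log2 fold change of the 90 genes changed sign under any alternative that gave it a value. Of these values 105 newly passed the threshold, 41 no longer did and 1447 stayed on their side. With 2 WT samples and 2 per mutant genotype, small differences cannot be resolved at this depth of replication.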
